A study of Mus musculus with 20 samples.

Results

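The p53 family of transcription factors has 3 members in the mouse, Trp63 (encoding p63), Trp53 (p53) and Trp73 (p73), and their RNA levels were compared in sorted skin cells of mouse embryos. The members were taken by gene symbol, 3 of the 23432 symbols counted, and all 3 were listed in each of the 12 RNA libraries. The libraries form 4 groups of 3. Epidermis of heterozygotes (Het) was sampled on embryonic day 9 (E9; replicates 1, 2 and 4) and on E13, and epidermis of knockouts (KO) and dermis of Het embryos on E13 alone. All embryos carried a GFP knock-in at delta-N p63, on 1 allele in the Het and in the KO form of the same knock-in in the KO, so that the Het controls and the dermis carry it too and no group is wild type. The labels do not state the strain or where the insertion lies within the gene. Collagenase and trypsin released the cells of the back skin, GFP marked the epidermal cells in the sort, and staining for CD140a (the Pdgfra protein) marked the dermal cells. The epidermal gate therefore selects cells in which the delta-N p63 reporter is on, in the KO as well as in the Het. The epidermal libraries were made after removal of ribosomal RNA and the dermal ones after oligo(dT) selection, and tissue and preparation cannot be told apart. Nothing in the labels says whether the replicates came from separate or pooled embryos, so p-values measure only the spread between these libraries, which may be technical. The series also holds 7 ATAC libraries and 1 ChIP library, which were not analysed here.

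The 3 proteins share a DNA-binding domain and recognise related sites. The p53 protein is kept low by ubiquitin ligases such as Mdm2 and accumulates after DNA damage largely without a change in its RNA, whereas p63 is a lineage factor of stratified epithelia and its delta-N isoforms maintain the basal keratinocyte. The p73 protein is best known in neurons and in multiciliated cells, and both Trp63 and Trp73 have an upstream promoter for full-length (TA) isoforms and an internal promoter for delta-N isoforms. The deposited counts are per gene, so the isoforms of both promoters are pooled, and the Trp63 count pools exons on either side of the knock-in.

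Gene counts per library ranged from 3373819 to 7777808 in epidermis and from 16931664 to 33386872 in dermis. The libraries with fewest genes detected (1 count or more) were E13 Het replicate 1, with 10765, and KO replicate 3, with 11275, and KO replicate 2 had the most, 16200. Levels are in CPM, counts per 1e+06 counts, on library totals scaled with TMM, a normalization for library composition, and group levels are mean ± SD of 3 libraries. Differences are log2 fold changes ± standard error, with edgeR's quasi-likelihood p adjusted over all genes tested (Benjamini-Hochberg, two-sided, called under 0.05). The summed CPM of 8 surface ectoderm markers (Krt5, Krt14, Krt15, Krt8, Krt18, Epcam, Cdh1 and Perp) was 1741 to 1929 at E9, 3327 to 4507 in E13 Het, 2556 to 3493 in KO and 5.94 to 9.62 in dermis. That of 8 dermal mesenchyme markers was 29726 to 41465 in dermis, against 165 to 213, 259 to 1289 and 965 to 1999.95 in E9, E13 Het and KO epidermis, so it was higher in KO than at E9 in each library. Its part in the differences between epidermal groups was not tested.

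Trp63 was highest in E13 Het epidermis, lower in E9 Het, much lower in KO and close to 0 in dermis. Its E9 values were 279, 219 and 122 CPM (replicates 1, 2 and 4), a mean of 207 ± 79.2 (SD, n = 3). In E13 Het it stood at 530.1, 613 and 457 CPM, a mean of 533 ± 78.1 (SD, n = 3). The lowest E13 Het library lay above the highest E9 library. In KO epidermis the values were 22.9, 24.9 and 20.5 CPM, from 152, 186 and 79 counts, a mean of 22.8 ± 2.21 (SD, n = 3). The KO libraries lay within a narrow range and below every Het epidermal library, and their mean was 4.27% of the E13 Het mean. Dermis gave 8, 0 and 60 Trp63 counts in replicates 1 to 3, or 0.466, 0 and 2.11 CPM. The count of 0 in dermis replicate 2 allows up to 0.254 CPM at a floor of 3 counts, and the dermal mean was 0.858 ± 1.11 (SD, n = 3). In bulk libraries, fewer cells of a type and less RNA per cell cannot be told apart. Intervals and floors cover counting error only.

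**Figure D1:**
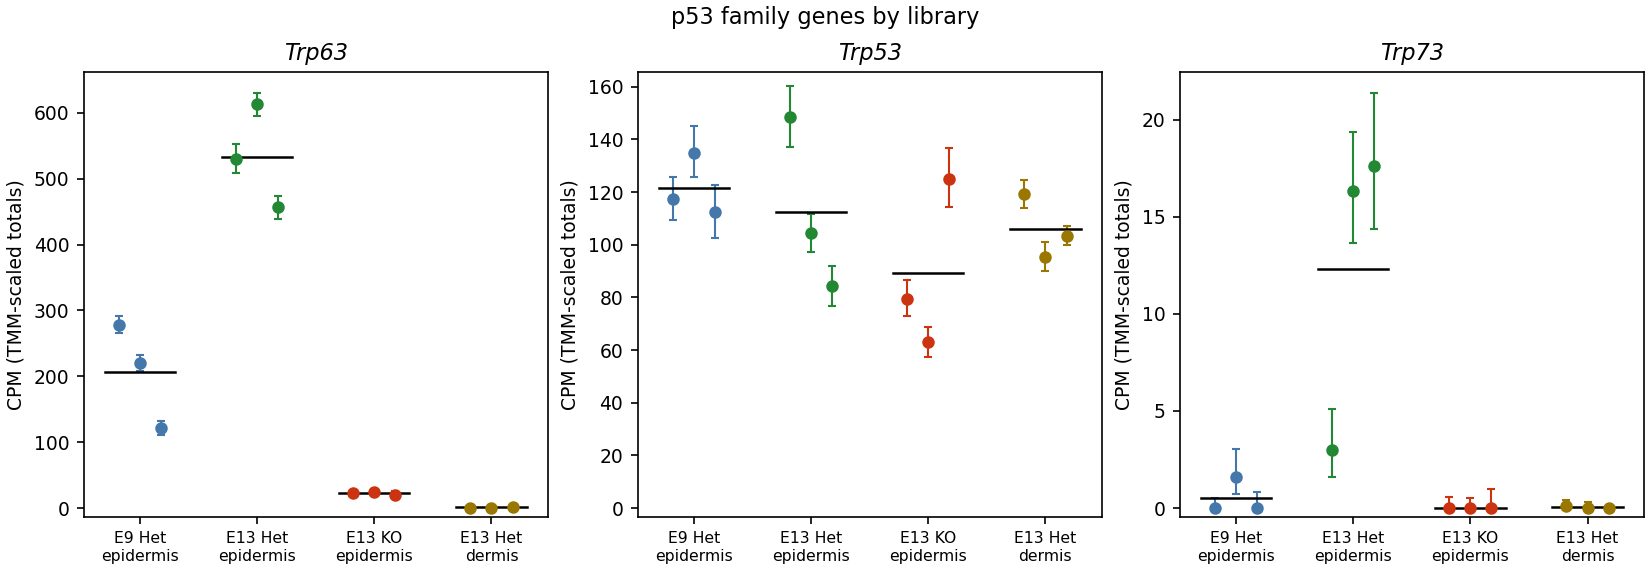
CPM (vertical axis, scaled for each gene) of Trp63, Trp53 and Trp73 in the 12 libraries by group; points are libraries, error bars exact 95% counting intervals and black lines group means. Trp63 separates all 4 groups, Trp53 overlaps in every pair of groups, and Trp73 is above 2 CPM in the E13 Het epidermal libraries alone.

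Because the KO targets this gene, its level in KO against E13 Het checks the labels. Trp63 was 23.3-fold lower in KO, a log2 fold change of -4.54 ± 0.28 (95% interval -5.14 to -3.94, adjusted p = 1.5e-06 by edgeR). Of the 3 members it was the only one called in this comparison, in which 2.2% of 13052 genes were called and the libraries of 20.2% did not overlap between groups. The reads that remain in KO were present in all 3 libraries and were more frequent than in dermis, where the log2 fold change of KO over dermis was 4.59 ± 1.12 (adjusted p = 0.0118 by edgeR). In that comparison 35.6% of 13140 genes were called, 16.7% as higher in KO and 18.8% as lower, and 55.3% did not overlap. With single libraries left out the adjusted p was at most 0.0497, and without dermis replicate 3, which held most dermal Trp63 counts, the difference was 6.42. Per-gene counts cannot show which exons or isoforms the KO reads come from.

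Trp63 rose between E9 and E13 in Het epidermis, by 1.36 ± 0.24 on the log2 scale or 2.57-fold (95% interval 0.84 to 1.88, adjusted p = 0.00305 by edgeR). In this comparison 7.29% of 13052 genes were called and 29% did not overlap. The call was lost where all 12 libraries shared 1 fit (1.36, adjusted p = 0.189), and was kept whichever single library of the pair of groups was left out (highest adjusted p 0.0168). KO at E13 also lay below the earlier stage, 9.04-fold under E9 Het, with a log2 fold change of -3.18 ± 0.26 (adjusted p = 8.2e-06 by edgeR). For KO against E9, 7.67% of genes were called and 32% did not overlap. These 3 epidermal comparisons share their libraries in pairs and come from 1 fit. Against dermis, Trp63 was higher by 8.96 ± 0.88 in E13 Het (adjusted p = 0.00045 by edgeR, 34.7% of 12975 genes called and 55.6% not overlapping) and by 7.57 ± 0.77 in E9 Het (adjusted p = 1.0e-04 by edgeR, 41.4% of 13046 genes called and 56.8% not overlapping). Without dermis replicate 3 these values were 10.87 and 9.49. With a replicate block E9 against dermis was 9.88. Dermis replicate 3 and E9 replicate 4 have no same-numbered partner in that fit and add nothing to it, so the 9.88 is no separate check. All neighbours in the order E13 Het, E9 Het, KO, dermis thus differed beyond their spread.

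The trace of Trp63 in dermis differed by library, as did other epidermal genes there. Krt5, a basal keratin, had 76, 27 and 0 counts in dermis replicates 1 to 3, and Krt14, its partner, had 35, 46 and 60. Epcam, an epithelial adhesion molecule, had 8, 9 and 83. On the CPM scale Krt5 was highest in replicate 1 (4.43), Krt14 in replicate 2 (3.90) and Epcam in replicate 3 (2.92), and the sum of the 8 surface ectoderm markers was lowest in replicate 3 (9.62, 9.49 and 5.94), the library with most Trp63. Whether these counts share a source was not tested.

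Trp63 spans chr16:25683763-25892088 (GRCm38.p6), and no other counted gene overlaps it. The nearest counted gene on the side of higher coordinates is Leprel1 (P3h2), a collagen prolyl hydroxylase, at a distance of 67195 bases. Leprel1 stood at 25.2, 45.8 and 21.6 CPM at E9, at 36.6, 48.3 and 24.0 in E13 Het, and at 2.26, 6.02 and 0 in KO. All KO libraries lay below all Het libraries, with a log2 fold change against E13 Het of -3.64 (adjusted p = 0.0397 by edgeR) and against E9 of -3.41 (adjusted p = 0.0236 by edgeR). The first call was lost without KO replicate 1, Het replicate 1 or Het replicate 2 (adjusted p up to 0.215), and the second without KO replicate 1, E9 replicate 1 or E9 replicate 2 (up to 0.116). Cldn1, a tight junction protein and the next gene on that side, stood at 25.4, 27.1 and 30.8 CPM in E13 Het and at 7.24, 4.01 and 0 in KO. These groups did not overlap, but the difference of -2.86 was not called by edgeR (adjusted p = 0.364), though voom called it. Of all genes tested, 20.2% did not overlap in KO against E13 Het and 32% in KO against E9. The shares called by edgeR were 2.2% and 7.67%. On the other side Tprg and A230028O05Rik were too low to be tested.

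Trp53 was read at similar levels in all 4 groups. At E9 it stood at 117, 135 and 112 CPM, a mean of 122 ± 11.8 (SD, n = 3). In E13 Het it stood at 148, 104 and 84.2 CPM, a mean of 112 ± 32.9 (SD, n = 3), and in KO at 79.5, 62.9 and 125 CPM, a mean of 89.2 ± 32.2 (SD, n = 3). Dermis gave 119, 95.5 and 103 CPM, a mean of 106 ± 12.1 (SD, n = 3). The libraries overlapped between every pair of groups, and in the order E9, E13 Het, dermis, KO no neighbours differed beyond their spread. The highest Trp53 values in E13 Het and in KO were those of E13 Het replicate 1 and of the third KO replicate, where fewest genes were detected, and the part of detection in them was not tested.

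No comparison called Trp53. KO against E13 Het gave -0.33 ± 0.27 (95% interval -0.91 to 0.25, adjusted p = 0.757 by edgeR), and E13 Het against E9 gave -0.12 ± 0.27 (-0.70 to 0.46, adjusted p = 0.885). KO against E9 gave -0.44 ± 0.27 (95% interval -1.02 to 0.14, adjusted p = 0.396 by edgeR), and limma voom with sample quality weights called that difference (-0.79, adjusted p = 0.00977). The lower bounds of these intervals, -0.91, -0.70 and -1.02, do not show equal levels. Against dermis the values were 0.03 ± 0.22 for E13 Het, -0.30 ± 0.24 for KO and 0.16 ± 0.16 for E9, with adjusted p of 0.936, 0.382 and 0.472 by edgeR. The KO value against dermis was called without KO replicate 3, at -0.63 (adjusted p = 0.027 by edgeR), and by voom at -0.54 (adjusted p = 0.0296), and it turned to 0.21 on raw library totals.

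**Figure D2:**
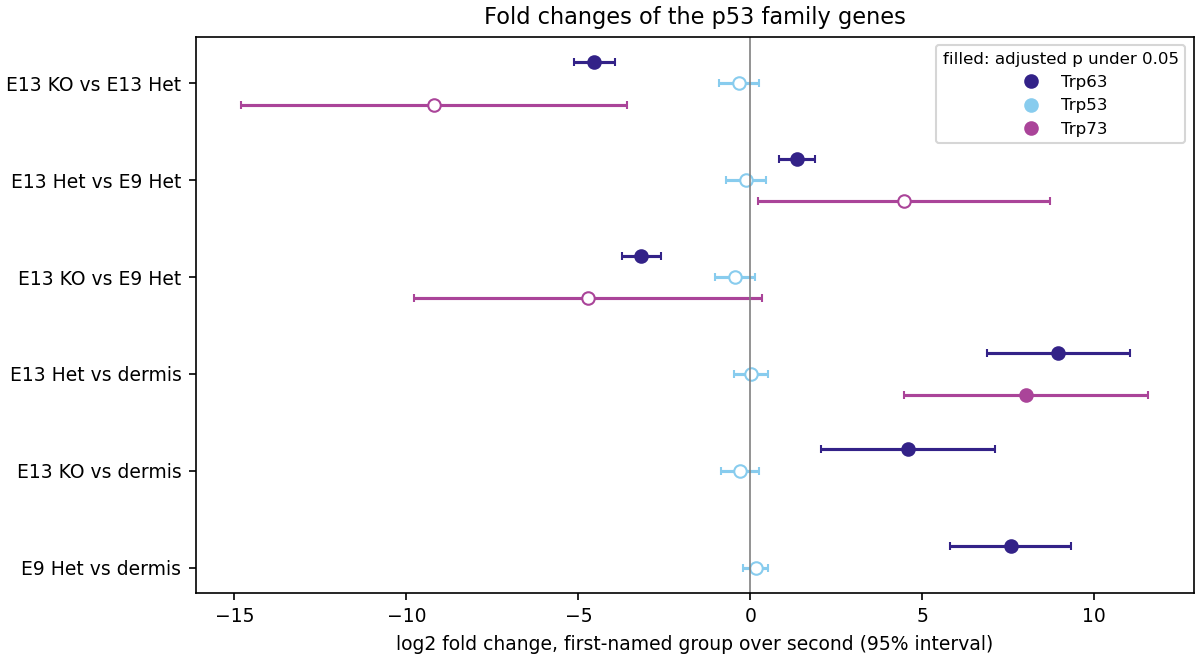
Log2 fold changes of the 3 members in the 6 comparisons (points, horizontal axis) with 95% intervals from edgeR, filled where called. Trp63 lies away from 0 in all 6, Trp53 spans 0 in all 6, and Trp73 has wide intervals because some of its groups hold 0 or few counts.

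Trp53 spans chr11:69580348-69591873 (GRCm38.p6), and the span of Wrap53, which encodes a telomerase and Cajal body protein, lies 97 bases from it. Its promoter is shown because a site of the family's own type can be looked for there. The RefSeq start used, chr11:69580359, lies inside the stated span, so the window before it includes the first bases of that span. The lower end of the window lies inside the Wrap53 span, which ends at 69580250. The 250 bases before this start, chr11:69580109-69580358 on the plus strand (RefSeq, GRCm38.p6), read as follows, with motif matches in capitals.
Trp53: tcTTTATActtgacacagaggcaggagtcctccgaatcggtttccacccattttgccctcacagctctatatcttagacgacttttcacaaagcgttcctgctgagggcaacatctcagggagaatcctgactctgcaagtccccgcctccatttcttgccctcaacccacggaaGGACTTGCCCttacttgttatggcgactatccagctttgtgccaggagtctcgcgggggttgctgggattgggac
The motifs searched, on both strands, were the p53 half-site by its consensus, the AP-2 site GCCNNNGGC, the E2F site TTTGGCGC and the TATA box TATAAA, and the matches do not overlap. The window holds 1 half-site match, GGACTTGCCC, that begins 75 bases before the start, and a TATA match on the reverse strand that begins 248 bases before it. Of 32851 promoter windows of the same length, 7.13% hold a half-site match and 12.4% a TATA match. A match describes the letters and is no evidence of binding. Wrap53 itself averaged 17.7, 14.1, 11.8 and 15.8 CPM in E9, E13 Het, KO and dermis, and edgeR called it in no comparison.

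Trp73 was detected in all E13 Het epidermal libraries and in no KO library. In E13 Het it had 13, 132 and 103 counts, or 2.996, 16.3 and 17.6 CPM. Their exact 95% counting intervals are 1.60 to 5.12, 13.7 to 19.4 and 14.4 to 21.4 CPM, so replicate 1, the library with fewest genes detected, lay below the other two beyond counting error. KO libraries had 0 counts each, which allows up to 0.452, 0.401 and 0.777 CPM at a floor of 3 counts. E9 gave 0, 9 and 0 counts in replicates 1, 2 and 4, the 9 counts being 1.60 CPM, and dermis gave 2, 0 and 0 counts. The group means were 12.3 ± 8.10 in E13 Het, 0.532 ± 0.922 at E9, 0.0388 ± 0.0673 in dermis and 0 in KO (SD, n = 3 each). Every E13 Het library lay above all libraries of the other groups, though the counting intervals of E13 Het replicate 1 and E9 replicate 2 (0.73 to 3.03 CPM) overlap, and E9, dermis and KO overlapped. Of all genes tested, 20.2% did not overlap between E13 Het and KO, 29% between E13 Het and E9, and 55.6% between E13 Het and dermis.

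The pooled E13 Het level (counts over summed totals) was 81.3-fold over KO, with KO set to a floor of 3 counts over its 3 libraries. That ratio leaves out the spread between E13 Het libraries. The call of the difference depended on the method. edgeR did not call it (fitted log2 fold change -9.19, which is no bound, 95% interval -14.8 to -3.58, unadjusted p = 0.00384, adjusted p = 0.109). Without a filter on low counts edgeR called it (adjusted p = 0.034). DESeq2 called it (adjusted p = 0.000953), as did voom (adjusted p = 0.0033). E13 Het was 23.1-fold over E9 in means and 4.47 ± 1.95 higher on the log2 scale (95% interval 0.22 to 8.71), and it was not called by edgeR (adjusted p = 0.227) but was by voom (5.45, adjusted p = 0.011). That ratio rests on E9 replicate 2, which held all E9 counts. For KO against E9, the pooled E9 level, again from replicate 2 alone, was 3.16-fold over KO at the same floor. The libraries of these groups overlapped. edgeR did not call a difference (95% interval -9.78 to 0.34, adjusted p = 0.276).

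E13 Het over dermis was called for Trp73, at 8.02 ± 1.55 (adjusted p = 0.00508 by edgeR). In that comparison 34.7% of 12975 genes were called, 16.5% as higher in E13 Het. With 2 dermal counts, the ratio was 390 with a 95% counting interval of 107 to 3238. Both counts were in dermis replicate 1, and without it dermis was at 0. E9 over dermis, too low to be tested, gave a ratio of 15.2 (3.14 to 144). Cajal-Retzius neurons, a cell type that expresses p73, were looked for with 6 markers (Reln, Calb2, Lhx1, Lhx5, Tbr1 and Ebf3). Their summed CPM was 8.99 to 22.8 in E13 Het, 2.66 to 23.5 at E9, 3.37 to 29.3 in KO and 17.4 to 51.3 in dermis, so the ranges overlapped. The medians in that order were 19.0, 5.53, 13.1 and 40.8 CPM. Only Lhx1 of the 6 had 0 counts in E13 Het, and it also had 0 at E9 and in dermis. Whether such cells were present was not tested. The sum of 8 general neuron markers was 1.84 to 30.5 CPM in E13 Het, 30.6 to 82.4 at E9, 59.3 to 163 in KO and 53.1 to 79.8 in dermis.

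Trp73 lies on the minus strand of chr4:154056249-154139875 (GRCm38.p6). RefSeq lists an upstream start, which gives full-length transcripts, and an internal start within the gene, which gives delta-N transcripts. Both promoters are shown because the counts pool them. The upstream window is chr4:154139876-154140125 and the internal one chr4:154097174-154097423, each 250 bases before its start on the minus strand (RefSeq, GRCm38.p6), with motif matches in capitals.
Trp73 upstream: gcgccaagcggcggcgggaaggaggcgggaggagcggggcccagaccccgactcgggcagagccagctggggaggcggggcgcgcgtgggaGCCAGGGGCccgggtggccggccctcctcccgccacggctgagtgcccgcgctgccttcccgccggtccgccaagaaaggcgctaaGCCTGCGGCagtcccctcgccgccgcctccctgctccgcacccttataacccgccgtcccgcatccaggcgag
Trp73 internal: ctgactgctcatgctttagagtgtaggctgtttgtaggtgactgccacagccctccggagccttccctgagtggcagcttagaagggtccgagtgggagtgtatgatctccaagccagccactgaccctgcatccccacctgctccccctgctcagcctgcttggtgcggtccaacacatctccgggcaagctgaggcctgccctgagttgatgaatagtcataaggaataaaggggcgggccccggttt
The upstream window holds 2 AP-2 matches, which begin 159 and 73 bases before the start, and AP-2 matches occur in 13.7% of the 32851 windows. None of the 4 motifs matched in the internal window, and E2F matches occur in 0.417% of all windows. The GC content was 77.2% upstream and 58.4% in the internal window. The nearest counted gene, Wdr8 (Wrap73), lies 2478 bases beyond the upstream start and averaged 13.8, 9.04, 7.02 and 16.8 CPM in E9, E13 Het, KO and dermis. No comparison called it by edgeR.

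Genes that inhibit the family or act on its ubiquitination, called the inhibitors below (Mdm2, Mdm4, Rfwd2, Rchy1, Huwe1, Usp7, Itch, Wwp1, Fbxw7 and Ppp1r13l), were all tested. In KO against E13 Het none of the 10 was called, against 2.2% of all genes. At that share, 0 calls in a short list does not set it apart from other genes. By an unadjusted p under 0.05, 1 passed, and DESeq2 called 0 and voom 1 (lower), while the median log2 fold change was -0.06 against 0.03 for all genes. Over all genes in this comparison, DESeq2 called 279 higher and 367 lower of 18024 with any count, and voom 265 and 370 of 13052 that passed the filter. The 18024 include any genes that DESeq2 left without an adjusted p, so these totals are not alike. The share of all genes with an unadjusted p under 0.05 was not computed. Such counts, here and below, therefore describe the lists alone. Mdm2, the main p53 ligase and itself a p53 target, stood at 44.9, 78.1 and 96.5 CPM in E13 Het and at 102, 81.5 and 115 CPM in KO, which overlap (adjusted p = 0.589 by edgeR). Between E9 and E13 Het, 1 of 10 rose, against 4.77% of all genes. This was Ppp1r13l, which encodes iASPP, an inhibitor of p53. It stood at 24.0, 21.1 and 24.1 CPM at E9 and at 70.3, 85.7 and 83.7 in E13 Het, groups that do not overlap, with a log2 fold change of 1.79 (adjusted p = 0.0089 by edgeR). In KO it stood at 56.6, 31.2 and 16.3 CPM, which overlaps E9 and lies below E13 Het. Neither difference was called by edgeR (adjusted p = 0.141 against E13 Het and 0.41 against E9), and voom called the one against E13 Het.

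Among the 13 cofactors, none was called in KO against E13 Het, against 2.2% of all genes. At an unadjusted p under 0.05, 4 passed, DESeq2 called 1 lower and voom 1 lower, and the median was -0.14. Between E9 and E13 Het, 1 of 13 rose, against 4.77% of all genes. This was Ppp1r13b, which encodes ASPP1, a partner that directs p53 family proteins to cell death genes. It stood at 11.3, 23.8 and 25.1 CPM at E9, and at 183, 98.9 and 158 CPM in E13 Het, so the groups were far apart, with a log2 fold change of 2.88 (adjusted p = 0.00045 by edgeR). In KO it stood at 58.5, 77.2 and 30.3 CPM, between the other groups without overlap. The KO difference from E13 Het, -1.40, was not called by edgeR (adjusted p = 0.0759) but was by DESeq2, by voom and without a filter on low counts. That from E9, 1.48 (adjusted p = 0.0301), was lost without KO replicate 1 or 2 or any E9 library (up to 0.121). The 7 stress kinases (Atm, Atr, Chek1, Chek2, Prkdc, Mapk14 and Abl1), which signal DNA damage and other stresses, had no call by edgeR in the 3 epidermal comparisons. Of all genes, 2.2% were called for KO against E13 Het, 7.29% for E13 Het against E9 and 7.67% for KO against E9. At an unadjusted p under 0.05, 0, 0 and 3 kinases passed in that order. DESeq2 called none and voom 1, lower in KO than at E9, where voom called 1156 of 13052 genes lower.

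Of 19 p53 response targets, 18 were tested and none was called in KO against E13 Het, against 2.2% of all genes. At an unadjusted p under 0.05, 7 passed, DESeq2 called 2 (lower), and voom called 1 higher and 2 lower. Their median was -0.75 against 0.03 for all genes. Cdkn1a, the cell cycle inhibitor p21 and the classic p53 target, stood at 33.0, 3.84 and 13.9 CPM in E13 Het and at 11.3, 8.70 and 0 in KO, overlapping with a wide spread (adjusted p = 0.741 by edgeR). Perp, a desmosomal protein that is a target of both p53 and p63 and stands in both target lists, was at 405, 405 and 336 CPM in E13 Het and at 51.7, 33.1 and 5.18 in KO. Its groups were far apart, and its difference of -3.64 was not called by edgeR (adjusted p = 0.0673) but was by DESeq2 and voom. From E9 to E13 Het, 2 of 18 rose, against 4.77% of all genes. Plk2, a polo-like kinase, stood at 72.8, 81.4 and 85.3 CPM at E9, at 183, 168 and 255 in E13 Het, and at 349, 277 and 286 in KO. It was higher than at E9 in E13 Het (1.34, adjusted p = 0.00042 by edgeR) and in KO (1.93, adjusted p = 2.2e-05). Btg2, an antiproliferative gene, rose from a mean of 1.87 to 26.3 CPM in E13 Het (3.77, adjusted p = 0.003 by edgeR) and stood at 24.7 in KO (3.68, adjusted p = 0.0035). With a replicate block, which also takes out E9 replicate 4 as the only library of its number, the Btg2 calls were lost. The adjusted p values by edgeR were then 0.0574 and 0.0611.

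The p63-activated genes of epidermis gave the most calls of the 7 lists in KO against E13 Het. In KO against E13 Het, 11 of 16 fell and none rose, against 1.36% of all genes that fell, with a median of -2.45 against 0.03. Krt5, the basal keratin and a direct p63 target, stood at 1318, 1034 and 1362 CPM in E13 Het and at 44.0, 19.4 and 39.6 in KO. The groups were far apart, at -5.17 (adjusted p = 9.4e-06 by edgeR), and KO overlapped E9, where Krt5 was at 49.1, 33.9 and 30.6 CPM. Fermt1, which links integrins to the cytoskeleton, fell from 166 to 26.7 CPM (-2.63), and Dst, a hemidesmosome plakin, from 1099.96 to 221 CPM (-2.31). Fermt1 was already at 144 CPM at E9, so it was lower in KO than at either Het stage (KO against E9 -2.42, adjusted p = 7.7e-06 by edgeR). Fras1, a basement membrane protein, did not move with the others, at 2047 CPM in E13 Het and 1821 in KO (adjusted p = 0.74 by edgeR), and was higher in both than at E9 (747 CPM). With single libraries left out, the count that fell was 9 to 12.

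From E9 to E13 Het, 10 of the 16 p63-activated genes rose and none fell, against 4.77% and 2.53% of all genes (median 1.61, 7 to 10 with single libraries left out). Itgb4, the beta subunit of the hemidesmosome integrin, rose from 12.4 to 366 CPM (4.88, adjusted p = 3.3e-08 by edgeR) and Krt5 from 37.8 to 1238 CPM (5.02, adjusted p = 5.8e-06). In KO against E9, 2 of 16 rose and 4 fell, against 4.62% and 3.05% of all genes. Itgb4 was higher in KO than at E9, at 67.0 CPM (2.44, adjusted p = 1.8e-05 by edgeR), so it stood between the Het stages. In an all-library fit both its KO calls were lost, against E13 Het at adjusted p = 0.115 and against E9 at 0.0571. The list holds known p63 targets and was chosen with earlier results of these libraries known, so its direction is not independent evidence.

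**Figure D3:**
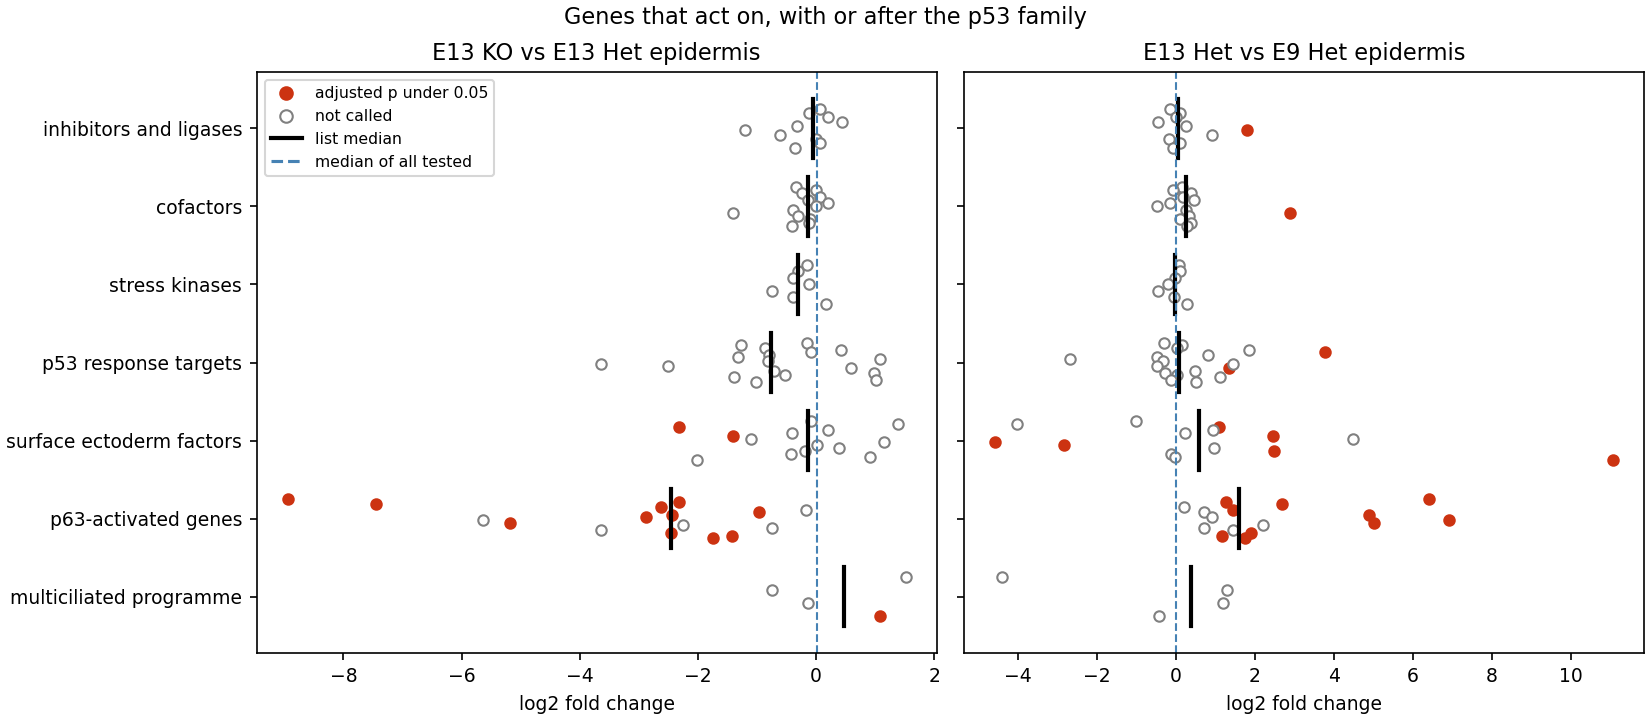
Log2 fold changes (horizontal axis) of each tested gene of the 7 lists, in KO against E13 Het and in E13 Het against E9, with called genes filled, list medians as black bars and the median of all tested genes dashed. The p63-activated genes lie mostly below 0 in KO against E13 Het and above 0 in E13 Het against E9, and the point near 11 is Zfp750, which had 0 counts at E9 so that its fitted value is no bound.

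Transcription factors and receptors of the surface ectoderm were mostly not called in KO against E13 Het. The list was not divided by whether its genes act before, with or after p63. Of 14, 2 fell and none rose, against 1.36% and 0.835% of all genes, and 7 had an unadjusted p under 0.05, with a median of -0.13. Fgfr2, a receptor for fibroblast growth factors, stood at 799, 1098 and 911 CPM in E13 Het and at 185, 204 and 170 in KO, which is far below (-2.32, adjusted p = 2.7e-06 by edgeR). Grhl3, a barrier factor, fell from a mean of 210.4 to 79.3 CPM (-1.40, adjusted p = 0.0371 by edgeR). The Grhl3 call was lost without Het replicate 1 or 3 or any KO library (adjusted p up to 0.167), so that with 1 library left out, 1 or 2 of the 14 fell. It was also lost with voom, with a replicate block and with all 12 libraries in 1 fit (adjusted p up to 0.217). With the block, and with all 12 libraries, 1 of the 14 fell.

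Between E9 and E13 Het, 4 of the 14 rose and 2 fell, against 4.77% and 2.53% of all genes. Grhl3 rose by 2.45 on the log2 scale and Satb1, a chromatin organiser, by 2.49, from 74.96 to 425 CPM. Msx1, a homeobox gene of early ectoderm, stood at 148, 156 and 123 CPM at E9 and at 7.84, 5.69 and 4.28 in E13 Het, a log2 fold change of -4.60 (adjusted p = 1.8e-05 by edgeR). In KO Msx1 stood at 22.8, 7.49 and 8.55 CPM, also below every E9 library, with a log2 fold change from E9 of -3.45 (adjusted p = 0.000125 by edgeR). In KO against E9, 3 of 14 rose and 3 fell, against 4.62% and 3.05% of all genes. The third of the genes that fell, beside Msx1 and Msx2, was Fgfr2 (-1.24).

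Of the 10 genes in the p73 programme of multiciliated cells, 9 were matched and 4 could be tested. Rfx3, a factor for ciliary genes, was higher in KO than in E13 Het, at 189, 173 and 149 CPM against 68.2, 85.7 and 87.3, a difference of 1.09 (adjusted p = 0.00755 by edgeR, against 0.835% of genes higher). At E9 it was at 114, 125 and 87.1 CPM, between these groups but for an overlap with E13 Het. For E13 Het against E9, edgeR called none of the 4, against 7.29% of all genes, and 2 had an unadjusted p under 0.05. DESeq2 and voom each called 1 lower, against 678 of 18024 genes with any count and 718 of 13052 that passed the filter. The direction of Rfx3 in KO was opposite to that of Trp73, which was read in E13 Het and not in KO.

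Against dermis, most cofactors were higher in epidermis. In E13 Het, 11 of 13 cofactors were higher and none lower (median 1.34 against -0.13 for all genes, 16.5% of which were higher). Hipk2, a kinase that phosphorylates p53, stood at 227, 202 and 232 CPM in E13 Het, at 239, 217 and 303 in KO, at 242, 254 and 240 at E9, and at 35.7, 18.1 and 24.4 in dermis. The dermal libraries lay far below every epidermal one (E13 Het over dermis 3.04, adjusted p = 8.4e-05 by edgeR). Of the 10 inhibitors 4 were higher, of the 7 kinases 3 (Prkdc, Atm and Atr), and of 18 p53 targets 6 were higher and 5 lower, against 18.2% of all genes that were lower. Among the 5 was Bax, a pore-forming death protein, at 13.9 CPM against 52.4. For KO against dermis, where 16.7% of all genes were higher and 18.8% lower, the cofactors gave 8 higher and none lower, the inhibitors 4 and none, the kinases 2 and 1, and the p53 targets 4 and 5. For E9 against dermis, with 18.5% of all genes higher and 22.9% lower, the cofactors gave 9 higher and 1 lower, the inhibitors 4 and 2, the kinases 4 and none, and the p53 targets 5 and 5. These counts share the dermal libraries and carry the difference in RNA preparation. Raw library totals moved the median of all genes from -0.13 to 0.30 for E13 Het, and the share of higher calls from 47.5% to 68.7% for E13 Het, from 47% to 72.2% for KO and from 44.6% to 65.5% for E9.

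Genes with a profile like that of a member were ranked by Pearson's r of log2 CPM across the 9 epidermal libraries, among the genes other than itself that averaged at least 10 CPM (9097 for Trp63 and Trp53, and 9098 for Trp73, which averaged less). The libraries form 3 groups and share depth and preparation, so r is a description. The genes were picked by r in these same libraries, so their group order and p-values are no separate evidence. For Trp63 the nearest were Fgfr2 (r = 0.978), Zfp36l2 (0.976), Sdc1 (0.975), Mgat5 (0.975) and Cth (0.975), and 49 genes, 0.539%, had r over 0.9. Mgat5, a glycosyltransferase, averaged 121, 299 and 48.1 CPM in E9, E13 Het and KO, in the order of Trp63, with KO against E13 Het at -2.63 (adjusted p = 7.2e-06 by edgeR). Zfp36l2, an RNA decay factor, averaged 75.6, 126 and 23.5 CPM, and Sdc1, the heparan sulphate proteoglycan syndecan, 143, 230.5 and 59.4 CPM.

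Far fewer genes ran closely with the other two members. For Trp53 the nearest were Nol6 (r = 0.967), Chpf (0.944), Timm23 (0.94), Cpsf1 (0.922) and Atad3a (0.918), with 8 genes over 0.9. For Trp73 they were Usp24 (0.965), Man2a2 (0.935), Nxn (0.925), Gstp1 (0.924) and Frmd6 (0.919), with 9 over 0.9. All KO libraries and E9 replicates 1 and 4 had 0 Trp73 counts and so share 1 value in this ranking. Nxn, a redox protein, averaged 108, 259 and 93.1 CPM in E9, E13 Het and KO, so it was highest in the group where Trp73 was detected. Unlike Trp73, it was well detected at E9 and in KO, with KO against E13 Het at -1.47 (adjusted p = 0.00028 by edgeR) and E13 Het against E9 at 1.26 (adjusted p = 0.00037). Usp24, a deubiquitinase, averaged 254, 365 and 215 CPM, and its KO difference of -0.76 (adjusted p = 0.0117 by edgeR) was lost without E13 Het replicate 2 (0.0583).

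**Figure D4:**
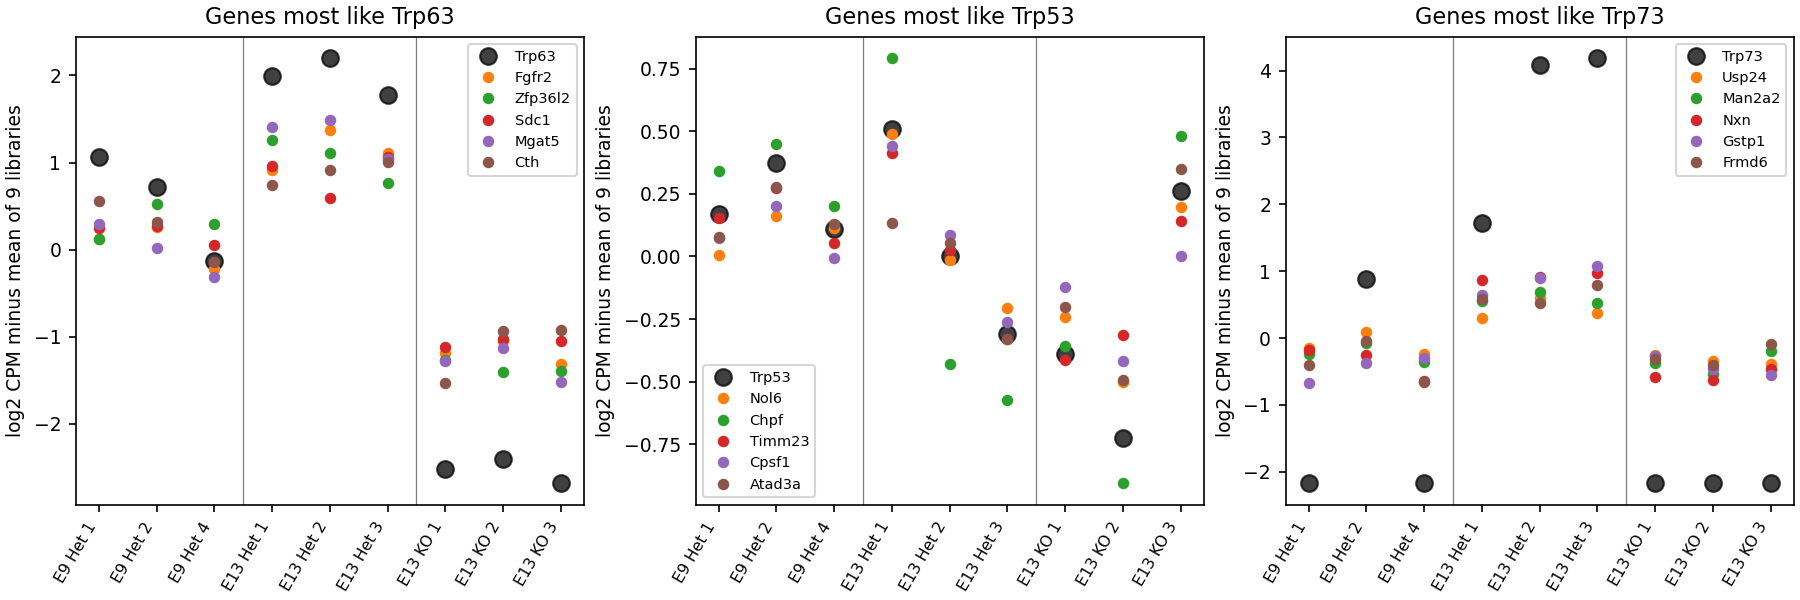
Log2 CPM minus its mean over the 9 epidermal libraries (vertical axis) for each member (large black points) and the 5 genes most like it (coloured), by library. The genes most like Trp63 are highest in E13 Het and lowest in KO, those like Trp53 vary within the groups, and those like Trp73 are highest in E13 Het.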

How the data were processed

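RNA was measured in 12 libraries of sorted mouse skin cells. The deposited files hold whole-number counts per gene symbol, and the processing notes of the submitters list HTSeq, TopHat2, Bowtie2 and mm10, whose versions and roles are not stated. How strand was treated is not given in the sources used. The summary lines at the end of each file (48.8% to 63.8% of entries in epidermis, 20.2% to 21.6% in dermis) were kept out of totals and tests. Groups were taken from the sample labels. Replicates differed by more than sampling noise (chi-square per degree of freedom 15.4 to 227).

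Counts were fitted with edgeR 4.0.16 in R 4.3.3 (filterByExpr, TMM, robust quasi-likelihood). The 3 epidermal comparisons came from 1 fit of 9 libraries with 6 residual degrees of freedom, and each comparison with dermis from the 6 libraries concerned. P-values were adjusted over all genes tested. Standard errors were taken from the F statistic (log2 fold change divided by its root). Floors of 3 counts over a group give fold values that leave out the spread between libraries, and counting intervals are exact at 95%.

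The members and gene lists were chosen with earlier results of these data known. Named genes are the members, their nearest counted neighbours, Mdm2, Cdkn1a, up to 3 called genes per list and comparison with the smallest adjusted p, and per member the 5 genes with the highest r. Perp, Fras1, Fermt1 against E9, Ppp1r13l and Ppp1r13b in KO, Bax, and Epcam and Krt14 in dermis were described after their values were seen. Rfwd2 is Cop1. A gene of the surface ectoderm list is not reported here and was left out of its counts. Positions and promoters come from RefSeq (GRCm38.p6), and the promoter table matched 2 of the 3 members.

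Alternatives were DESeq2 1.42.0, voom of limma 3.58.1 with sample quality weights, RLE size factors, raw totals, no filter, all 12 libraries in 1 fit, a replicate block and leaving out each library. In comparisons with E9, the block leaves E9 replicate 4 with no other library of its number, so that library adds nothing to the estimate. Leaving out both libraries with fewest genes detected was added after seeing the data. The procedure was tested on simulated data.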

Additional observations from a re-analysis of the deposited data

How the results depend on the processing

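All 36 values of Trp63 with single libraries left out kept their direction and call, as did 42 of its 43 values under other settings, the exception being E13 Het against E9 with all 12 libraries in 1 fit (1.36, no longer called). For Trp73, KO against E13 Het became called with DESeq2 (-8.56), voom (-7.66) and no filter (-9.17), and E13 Het against E9 with voom (5.45). KO against E9 without E9 replicate 2 gave no value, since both groups were then at 0. Its other 25 values, and 23 with single libraries left out, kept direction and call, as did 37 of 43 and 33 of 36 values of Trp53. Trp53 became called with voom for KO against E9 (-0.79) and against dermis (-0.54). For E13 Het against dermis it changed sign with voom (-0.14), no filter (-0.000846) and a replicate block (-0.00172), and for KO against dermis with raw totals (0.21), none of them called. With single libraries left out, Trp53 ran from -0.39 to 0.0246 (without E13 Het replicate 3) for E13 Het against E9, from -0.21 to 0.19 for E13 Het against dermis and from -0.63 to -0.11 for KO against dermis.

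The number of genes called was 287 for KO against E13 Het (DESeq2 646, voom 635, 182 to 348 with single libraries left out, lowest without KO replicate 1), 952 for E13 Het against E9 (DESeq2 1656, voom 1692, 569 to 812) and 1001 for KO against E9 (DESeq2 1810, voom 2563, 557 to 815). E13 Het against dermis gave 4504 (2934 to 5269, lowest without dermis replicate 3). The lowest counts at E13 Het and KO against E9 were without E9 replicate 2, and those without E9 replicate 1 (597 and 606) and, for KO, KO replicate 1 (592) were also over 1.5 times lower. A replicate block gave 576 for E13 Het against E9 and 540 for KO against E9. E9 replicate 4 is the only library with its number, so the block also takes it out of both comparisons. Leaving out E9 replicate 4 without a block gave 711 and 779. Same-numbered libraries had correlations of deviations from -0.065 to 0.255, not all over 0.1, and not every library correlated best with its own number. The highest value in KO against E13 Het was that of the same-numbered replicates 2 (0.255). Deviations from a mean of 3 libraries are tied to each other, so these correlations cannot decide whether the numbers pair the samples. Without both libraries with fewest genes detected, 225 genes were called for KO against E13 Het, with Trp63 at -4.50, Trp53 at -0.42 and Trp73 at -9.78 (adjusted p = 0.108). A count of 0 in KO replicate 3 allows up to 0.777 CPM.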
